A study of Sus scrofa with 8 samples.

Results

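Chaperones bind unfolded or partly folded proteins and release them in cycles of ATP hydrolysis. In the cytosol, J-domain proteins deliver clients to HSP70, nucleotide exchange factors of the BAG and HSP110 families reset it, and HSP90 with its co-chaperones takes over clients such as kinases and steroid hormone receptors. The transcription factor HSF1 is known to induce many of these genes when unfolded proteins accumulate, and in striated muscle UNC45B and BAG3 serve the folding of myosin and the turnover of filamin. The data below describe 40 such genes in the right ventricle of pigs after banding of the pulmonary artery. They were matched by gene name, or by the one-to-one human name, to the authors' deposited table and then by identifier to the deposited counts, which found 38 of the 40 among 31908 gene models. All 38 passed the filter on low counts that left 13697 genes in the test. The list is broader than the cytosol, since HSPA9, HSPD1, HSPE1, TRAP1 and DNAJA3 are known to act in mitochondria, HSPA13 at the endoplasmic reticulum, and HSF1 and HSF2 are transcription factors.

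Bulk RNA from the right ventricular free wall was sequenced in 8 Yorkshire Cross pigs, 1 library per animal. In the banded group (n = 4), castrated male piglets of 4.5 ± 0.6 weeks and 6.4 ± 1.3 kg had the main pulmonary artery cinched until the peak systolic pressure of the right ventricle was about 30 to 40 mmHg. The control group (n = 4) was of similar age and weight and was housed for 8 weeks, with no treatment in the labels. The labels do not state the sex of the controls, a sham operation, a sequencing batch or the time from banding to tissue collection, so none of these can be told apart from banding. No drug, transgene or allele is named for either group. The libraries held 31033679 to 34183338 counts, of which transcripts of the mitochondrial genome took 30.5% to 43.9%. Values below are CPM, the share of a library's reads scaled to a common total with TMM factors, on which 3 counts in a library equal 0.0843 to 0.104 CPM. The cardiomyocyte markers MYL2 and TNNT2 were among the most abundant transcripts (mean 18011 and 7710 CPM per kb of exon). The summed level of the 8 cardiomyocyte markers with a gene model was 29654 to 40324 CPM across controls and 39172 to 50755 CPM across banded animals. MYL2 supplied most of that rise (means of 9264 and 17465 CPM), and the list did not go one way, with 4 log2 fold changes positive, 4 negative and a median of 0.03. TTN and PLN had no matched model, and TNNI3, the cardiac troponin I, was at only 2.44 to 20.6 CPM. In bulk tissue, fewer cells of a type and less RNA per cell cannot be told apart.

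No chaperone gene differed between banded and control pigs at an adjusted p under 0.05 in edgeR's quasi-likelihood test, against 6.97% of all tested genes. The unadjusted p was under 0.05 for 4 of the 38 (BAG1, BAG2, FKBP4 and FKBP5), while 23.8% of all genes reached it. DESeq2 called 1 of the 38 (BAG1, background 10.4% of the genes with an adjusted p) and gave no p for 2 of them, BAG3 and HSPH1. With quality weights, limma-voom called 2 (BAG1 and BAG2, background 9.79%). The groups did not overlap for 2 of the 38 genes, BAG1 and BAG2, against 15.9% of all genes (7.66% with banded higher and 8.2% with banded lower). The log2 fold change of banded over control was positive for 26 and negative for 12 genes, with a median of 0.18, beside 0.02 for all tested genes. That median and many of the single values rested on 1 animal: without banded 3 the log2 fold change was negative for 22 of the 38 and the median was -0.05, beside 0.01 for all genes. Without banded 3, both edgeR (background 6.72%) and DESeq2 (background 10.2%) called 2 of the 38, BAG1 and BAG2.

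The banded animals were not alike in these genes. Banded 3 held the highest level of the 8 libraries for 21 of the 38 genes (55.3%), against 20.0% of all tested genes. It was the lowest library for 5.26% of the 38 and for 20.8% of all tested genes. Over all tested genes it thus had the largest share of any library at both ends. For 8 of the 38 (21.1%) it stood more than 2-fold above the next library, which it did for 1.64% of all tested genes and no other library did for any of the 38. Those 8 were BAG3, HSPH1, DNAJA1, HSF2, DNAJA4, HSPA8, DNAJB5 and DNAJB1. Banded 3 did not stand apart in depth (34169120 counts), but it had the smallest mitochondrial share (30.5%). Of the cardiomyocyte markers it was the highest library for MYL2 (20446 CPM) and ACTN2 (3397 CPM), and for their summed level (50755 CPM). It was the lowest for TNNI3 (2.44 CPM) and MYBPC3 (2049 CPM). Its summed level of 9 immediate-early genes was 766 CPM, below control 4 (1225 CPM) and above the other 6 libraries (198 to 704 CPM). Whether any of these had a part in its chaperone levels was not tested.

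**Figure D1:**
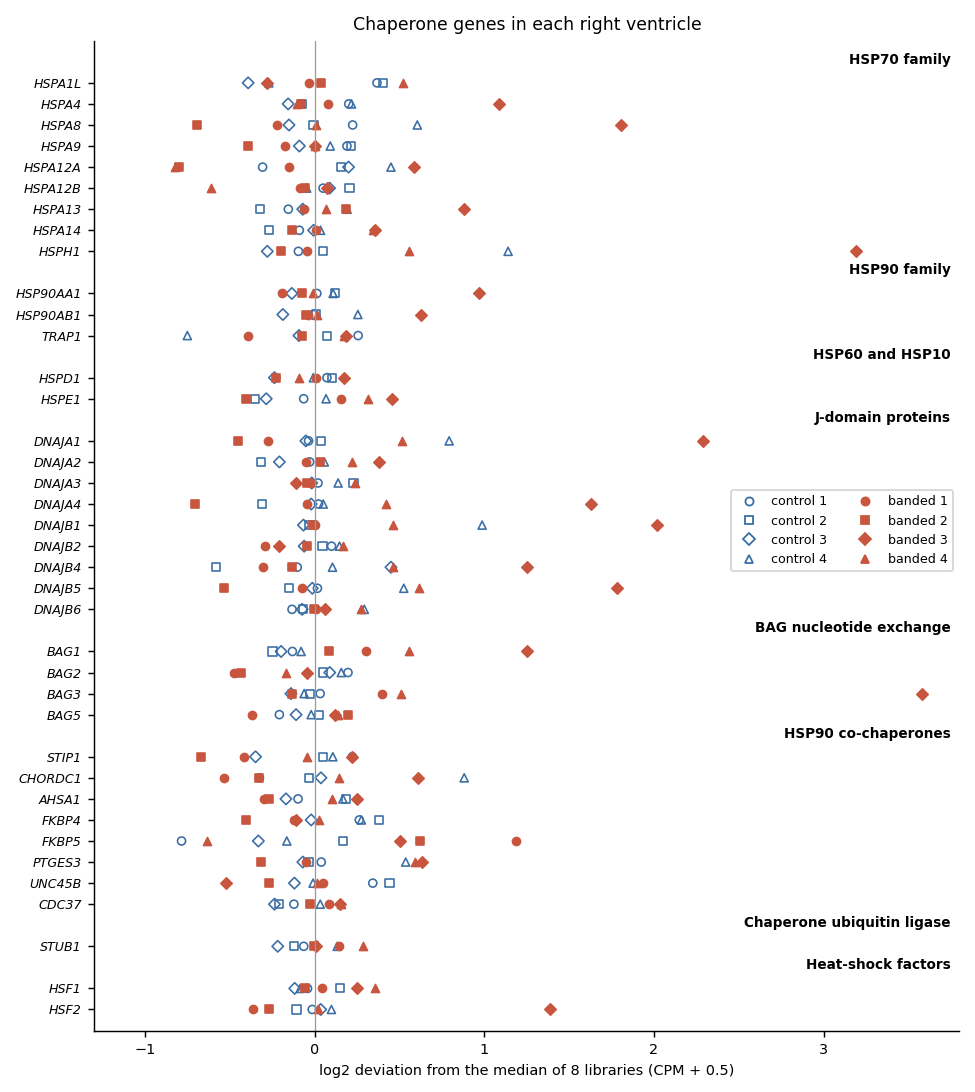
Each row is 1 of the 38 genes, ordered by role, and each point is 1 library. The x axis is the log2 deviation of CPM (with 0.5 added) from the median of the 8 libraries. Banded 3 (filled diamonds) lies far to the right for BAG3, HSPH1, DNAJA1, DNAJB1, HSPA8, DNAJB5, DNAJA4 and HSF2 and is the leftmost point for UNC45B.

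**Figure D2:**
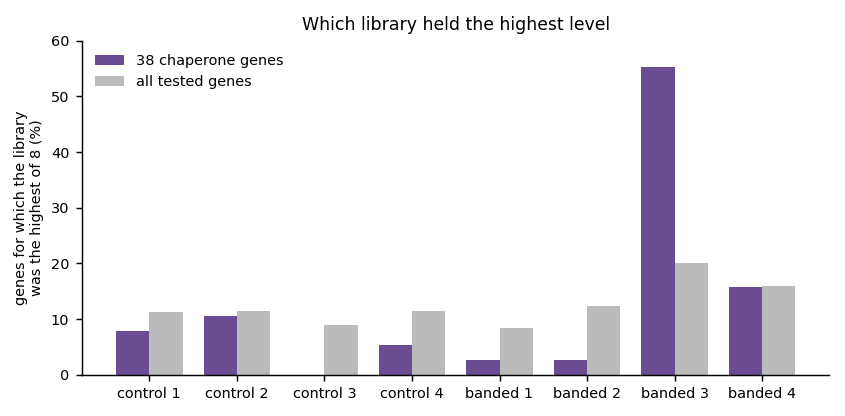
Bars give, for each library, the percentage of genes for which it held the highest level of the 8, for the 38 chaperone genes (purple) and for all tested genes (grey). Banded 3 reached 55.3% of the chaperone genes and 20.0% of all genes, and control 3 none of the chaperone genes.

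The authors' deposited comparison bears on the same animal. Its log2 fold changes differed from those of a DESeq2 fit of the 7 libraries without banded 3 by at most 0.00363 over 12959 genes with a mean normalised signal above 10. They differed by up to 5.50 from a fit of all 8 libraries, with a median difference of 0.0816, and by up to 5.44 or more from each fit without 1 of the other libraries. A fit of 4 controls and 3 banded animals thus gave nearly the numbers of that table, and which libraries the authors compared is not given in the sources used here. In the authors' deposited table, 2 of the 38 genes had an adjusted p under 0.05, BAG2 and BAG1, against 10.6% of the genes with an adjusted p. There the log2 fold change of control over banded was 0.49 for BAG2 (adjusted p = 0.0176) and -0.50 for BAG1 (adjusted p = 0.0186). In the authors' deposited table that of HSPA8 was 0.47, lower in banded animals, with an adjusted p of 0.15. The fit of all 8 libraries gave HSPA8 the opposite direction, as its values below show.

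Among the HSP70 genes, HSPA8, the constitutive cytosolic HSP70, was the most abundant per length (164 CPM per kb). Its level was 956, 814, 737 and 1245 CPM in controls 1 to 4 and 702, 506, 2865 and 824 CPM in banded 1 to 4. Banded 3 was 2.30 times the next library, and the other banded libraries lay within or below the control range. The log2 fold change was 0.38 ± 0.53 (SE, adjusted p = 0.711 in edgeR) over all 8 libraries and -0.47 ± 0.22 without banded 3 (adjusted p = 0.237). HSPH1, an HSP110 that acts as exchange factor for HSP70, was at 13.1, 14.5, 11.5 and 31.5 CPM across controls and 13.5, 12.1, 132 and 20.9 CPM across banded animals. Control 4 was the highest control and banded 3 was 4.20 times that, so the fold change had a wide error (1.34 ± 0.89, adjusted p = 0.417). HSPA4, also an HSP110, reached 165.7 CPM in banded 3, against 69.7 to 90.5 CPM in the remaining 7 libraries.

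Of the remaining HSP70 genes, none was called. HSPA13 was at 22.3 CPM in banded 3 and 9.40 to 13.6 CPM elsewhere. HSPA9, the mitochondrial HSP70, was at 381 ± 35.4 CPM across controls and 323 ± 40.7 CPM across banded animals (SD, n = 4 each, log2 fold change -0.24 ± 0.14, adjusted p = 0.34 in edgeR). HSPA12B, an atypical HSP70 known from endothelium, was at 50.4 to 60.1 CPM across controls and 49.0, 49.99, 54.7 and 33.9 CPM in banded 1 to 4, so that only banded 3 reached into the control range (adjusted p = 0.394). Beside it, the summed level of 10 endothelial markers was 961 to 1147 CPM across controls and 976 to 1048 CPM across banded animals, with 1 marker called lower (EMCN) and 0 higher in edgeR (2 at an unadjusted p under 0.05). The log2 fold change was negative for 7 of the 10, with a median of -0.21 beside -0.23 for HSPA12B. Without banded 3 it was negative for 9 of the 10, with a median of -0.29 beside -0.31 for HSPA12B. Their part in the level of HSPA12B was not tested. HSPA12A (2.29 to 6.89 CPM), HSPA14 (20.8 to 32.4 CPM) and HSPA1L (0.506 to 1.39 CPM) gave log2 fold changes of -0.36, 0.24 and 0.02, with adjusted p of 0.577, 0.346 and 0.981. Banded 3 was the highest library for HSPA12A. Without banded 3 its log2 fold change was -0.80 ± 0.29 (adjusted p = 0.125 in edgeR), the lowest of the 38 genes. Those of HSPA14 and HSPA1L were then 0.17 and 0.18.

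HSPA2 and HSPA4L could not be matched. The RefSeq locus of HSPA2 (chromosome 7, 88607140 to 88609947, Sscrofa11.1) lies in the gene model of ZBTB1 and over an unnamed model with 0 counts in every library. That of HSPA4L (chromosome 8, 97032179 to 97088240) lies in the model named PLK4, whose reads cannot be split between the genes. The PLK4 model was at 3.05 to 4.52 CPM across controls and at 4.42, 4.27, 8.38 and 5.14 CPM in banded 1 to 4 (adjusted p = 0.229).

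The cytosolic HSP90 genes were close to each other in level. HSP90AA1, the inducible form, was at 724, 780, 653 and 774 CPM across controls and 627, 681, 1404 and 712 CPM across banded animals. HSP90AB1, the constitutive form, was at 634, 640, 559 and 760 CPM across controls and 619, 614, 982 and 642 CPM across banded animals. Banded 3 was the highest library for both, and the other banded libraries lay within the control range of HSP90AB1 and within or just below that of HSP90AA1. The ratio of HSP90AA1 to HSP90AB1 was 1.02 to 1.22 in controls and 1.01, 1.11, 1.43 and 1.11 in banded 1 to 4. Its difference of 0.03 on the log2 scale had an exact two-sided permutation p of 0.943, adjusted over 4 ratios to 0.943, where 4 against 4 allows no p below 0.0286. The log2 fold changes were 0.22 ± 0.24 for HSP90AA1 (adjusted p = 0.621 in edgeR) and 0.14 ± 0.18 for HSP90AB1 (adjusted p = 0.695). TRAP1, the mitochondrial HSP90, had its lowest level in control 4 (43.9 CPM), below the 56.4 to 88.8 CPM of the other 7 libraries.

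HSPD1 and HSPE1 encode the mitochondrial chaperonin HSP60 and its lid HSP10. Their models are neighbours on opposite strands of chromosome 15 (101360094 to 101373527 and 101373788 to 101376162, Sscrofa11.1). HSPD1 was at 134, 137, 108 and 127 CPM across controls and 128, 109, 143 and 120 CPM across banded animals, with a log2 fold change of -0.02 ± 0.13 (adjusted p = 0.959 in edgeR). HSPE1 was at 76.2, 62.3, 65.4 and 83.6 CPM across controls and 88.8, 60.2, 109.6 and 99.3 CPM across banded animals (0.32 ± 0.18, adjusted p = 0.323). The banded and control ranges overlapped for both genes. The ratio of HSPD1 to HSPE1 was 1.51 to 2.19 in controls and 1.20 to 1.81 in banded animals. That difference of -0.31 on the log2 scale did not pass (exact permutation p = 0.143, adjusted p = 0.286 over 4 ratios).

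J-domain proteins bring clients to HSP70 and start its ATP hydrolysis. DNAJA1, the most abundant of the 9 per length, was at 93.1, 98.1, 92.1 and 165.8 CPM across controls and 78.7, 69.6, 468 and 137 CPM across banded animals. DNAJB1, the classical partner of HSP70 in the heat-shock response, was at 18.7, 18.3, 17.8 and 37.5 CPM across controls and 18.7, 18.6, 77.2 and 25.9 CPM across banded animals. For both, banded 3 was highest, followed by control 4 and then banded 4, and the other 5 libraries lay close together. DNAJB5, a muscle-rich J protein, was at 113 to 181 CPM across controls and 119, 86.4, 433 and 192 CPM in banded 1 to 4. DNAJA4 reached 429 CPM in banded 3 against 84.8 to 186 CPM in the other 7 libraries, and DNAJB4 268 CPM against 75.0 to 155 CPM. The log2 fold changes of these 5 genes were 0.75, 0.61, 0.61, 0.65 and 0.44, with SE of 0.35 to 0.64 and adjusted p of 0.419 to 0.539 in edgeR. Without banded 3 they were -0.24, -0.13, -0.04, 0.02 and 0.03. DNAJA2 (36.5 to 59.5 CPM), DNAJA3 (46.1 to 58.8 CPM), DNAJB2 (28.5 to 39.4 CPM) and DNAJB6 (55.7 to 75.0 CPM) had log2 fold changes of -0.15 to 0.28. The largest was that of DNAJA2 (adjusted p = 0.247 in edgeR), for which banded 3 and 4 (59.5 and 53.2 CPM) were above every control (36.5 to 47.4 CPM).

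**Figure D3:**
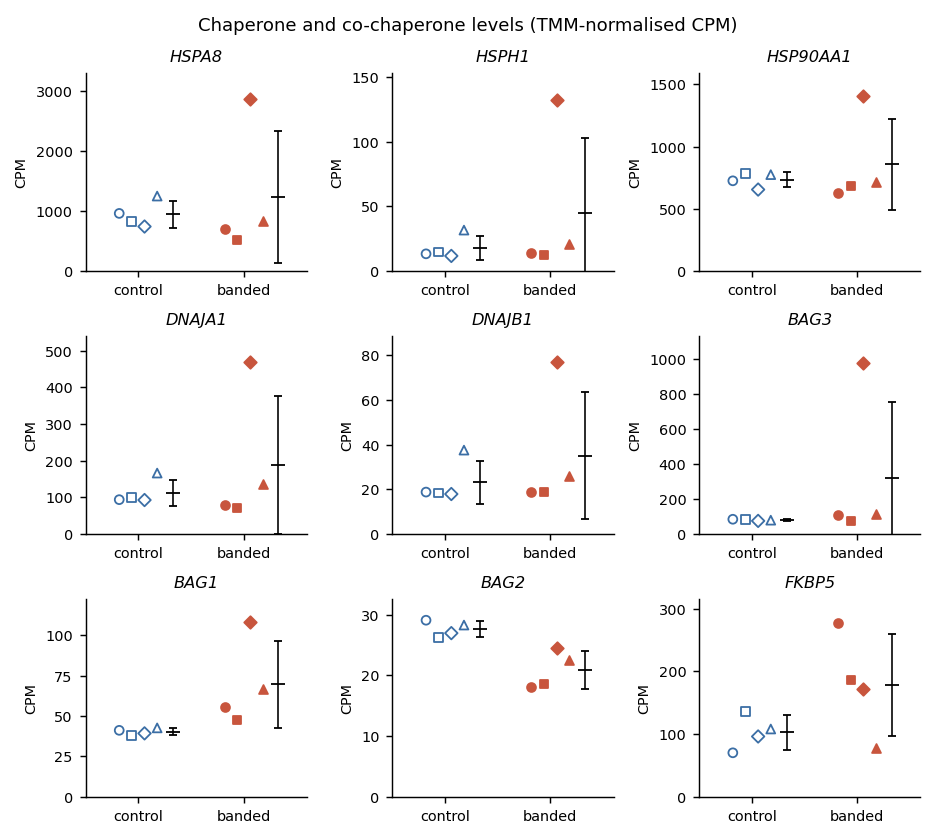
TMM-normalised CPM of 9 genes in each library (circle, square, diamond and triangle for animals 1 to 4 of a group, open for control and filled for banded), with the mean and SD (n = 4) beside each group. SD bars that pass below 0 are cut at the axis. Banded 3 carries the banded mean of HSPA8, HSPH1, HSP90AA1, DNAJA1, DNAJB1 and BAG3, and the groups separate for BAG1 and BAG2.

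Of the 38 genes, BAG1 and BAG2 had the lowest adjusted p, and they went in opposite directions. BAG1, an exchange factor that links HSP70 to the proteasome, was at 41.1, 37.9, 39.3 and 42.6 CPM across controls and 55.8, 47.8, 107.9 and 66.5 CPM in banded 1 to 4. Every banded library was above every control. The mean was 40.2 ± 2.09 and 69.5 ± 26.7 CPM (SD, n = 4), with a log2 fold change of 0.79 ± 0.22 (SE) and an adjusted p of 0.056 in edgeR. The difference was called by DESeq2 (adjusted p = 0.0109) and by limma-voom (adjusted p = 0.0438), and without banded 3 in edgeR (0.50 ± 0.13, adjusted p = 0.0478). It was also called in edgeR without banded 2 (adjusted p = 0.0275), but not without banded 1 or banded 4. On leaving out 1 control, its adjusted p in edgeR was 0.0952 to 0.147.

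BAG2, known as an inhibitor of the ubiquitin ligase STUB1 (CHIP), was at 29.1, 26.2, 27.0 and 28.3 CPM across controls and 18.1, 18.6, 24.5 and 22.5 CPM across banded animals. Every banded library was below every control, and banded 3 was the nearest to them. The log2 fold change was -0.40 ± 0.13 (adjusted p = 0.0971 in edgeR). It was called in edgeR without banded 3 (-0.49 ± 0.13, adjusted p = 0.0439), but not on leaving out any other single library. It was called by limma-voom (adjusted p = 0.0311), but not by DESeq2 with all libraries (adjusted p = 0.101). Both BAG1 (chromosome 10, 33227338 to 33240724) and BAG2 (chromosome 7, 28659753 to 28680491) have models that meet no other RefSeq gene. STUB1 itself was at 40.6 to 51.9 CPM across controls and 47.1 to 57.7 CPM across banded animals (0.18 ± 0.12, adjusted p = 0.424).

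BAG3, which couples HSP70 to HSPB8 and to selective autophagy in muscle, had the largest log2 fold change of the 38 genes and the largest gap between its highest and second library. It was at 82.8, 79.3, 73.4 and 77.5 CPM across controls and 107 CPM, 73.8 CPM, 975 CPM and 115 CPM in banded 1 to 4. Banded 3 was 8.46 times the next library, banded 1 and 4 were above every control, and banded 2 lay within the control range. The log2 fold change was 2.02 ± 0.89 with all libraries (adjusted p = 0.229 in edgeR) and 0.33 ± 0.16 without banded 3 (adjusted p = 0.228). DESeq2 returned no p for BAG3 or HSPH1. The ratio of BAG3 to BAG1 was 1.82 to 2.09 in controls and 1.91, 1.54, 9.03 and 1.73 in banded animals (exact permutation p = 0.943, adjusted p = 0.943 over 4 ratios). In 3 of 4 banded libraries BAG3 was thus no higher relative to BAG1 than in controls. BAG5 was at 11.0 to 16.6 CPM in all libraries (adjusted p = 0.695).

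HSP90 co-chaperones select its clients and pace its ATP cycle. FKBP4 and FKBP5 are immunophilins that bind HSP90 in steroid receptor complexes, and FKBP5 is known as a target gene of the glucocorticoid receptor. FKBP5 was at 70.17, 136.2, 96.2 and 108 CPM across controls and 277, 187, 172 and 77.9 CPM across banded animals. Banded 1 to 3 were above every control and banded 4 was among them, so the log2 fold change of 0.80 ± 0.35 was not called (adjusted p = 0.2 in edgeR, 0.0275 without banded 4). Banded 1, the highest library, also stood apart in the summed level of 4 adipocyte markers (292 CPM). That sum was 5.09, 3.71 and 15.6 CPM in banded 2 to 4 and 12.2 to 32.2 CPM across controls. The 8 macrophage markers summed to 381 to 608 CPM for controls and 576 to 1082 CPM for banded animals, with 7 of 8 log2 fold changes positive, 0 called in edgeR and 5 at an unadjusted p under 0.05. The part of either in the level of FKBP5 was not tested. FKBP4 was at 211, 228, 173 and 212 CPM across controls and 161, 133, 163 and 178 CPM across banded animals (-0.38 ± 0.14, adjusted p = 0.132), and only control 3 lay below the highest banded library. The ratio of FKBP5 to FKBP4 was 0.333 to 0.597 in controls and 1.72, 1.41, 1.06 and 0.437 in banded 1 to 4. The difference of 1.079 on the log2 scale did not pass the exact permutation test (p = 0.114, adjusted p = 0.286 over 4 ratios). After adjustment, 1 ratio alone could not have passed.

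UNC45B, the muscle chaperone of myosin heads, was at 113, 121, 82.2 and 88.7 CPM across controls and 92.2, 73.9, 62.0 and 90.0 CPM across banded animals (-0.35 ± 0.17, adjusted p = 0.24 in edgeR). It was lowest in banded 3, the library that was highest for most of the list. The other co-chaperones overlapped between groups. Their log2 fold changes were -0.21 for STIP1, which bridges HSP70 and HSP90, -0.18 for CHORDC1, -0.06 for AHSA1, which activates the ATPase, 0.13 for PTGES3 (p23) and 0.22 for the kinase adaptor CDC37. Their adjusted p were 0.277 to 0.849. CHORDC1 and PTGES3 were highest among controls in control 4 (34.1 and 82.3 CPM, against 14.5 to 18.7 and 53.9 to 58.1 CPM).

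The heat-shock factors differed from each other in banded 3. HSF1 was at 32.5, 37.2, 30.8 and 31.5 CPM across controls and 34.5, 32.2, 40.0 and 43.1 CPM across banded animals (0.18 ± 0.13, adjusted p = 0.434 in edgeR). HSF2 was at 11.4, 10.6, 11.8 and 12.4 CPM across controls and 8.81, 9.47, 30.9 and 11.6 CPM across banded animals (0.40 ± 0.37, adjusted p = 0.567). Banded 3 was thus 2.50 times the next library for HSF2 and second, below banded 4, for HSF1.

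**Figure D4:**
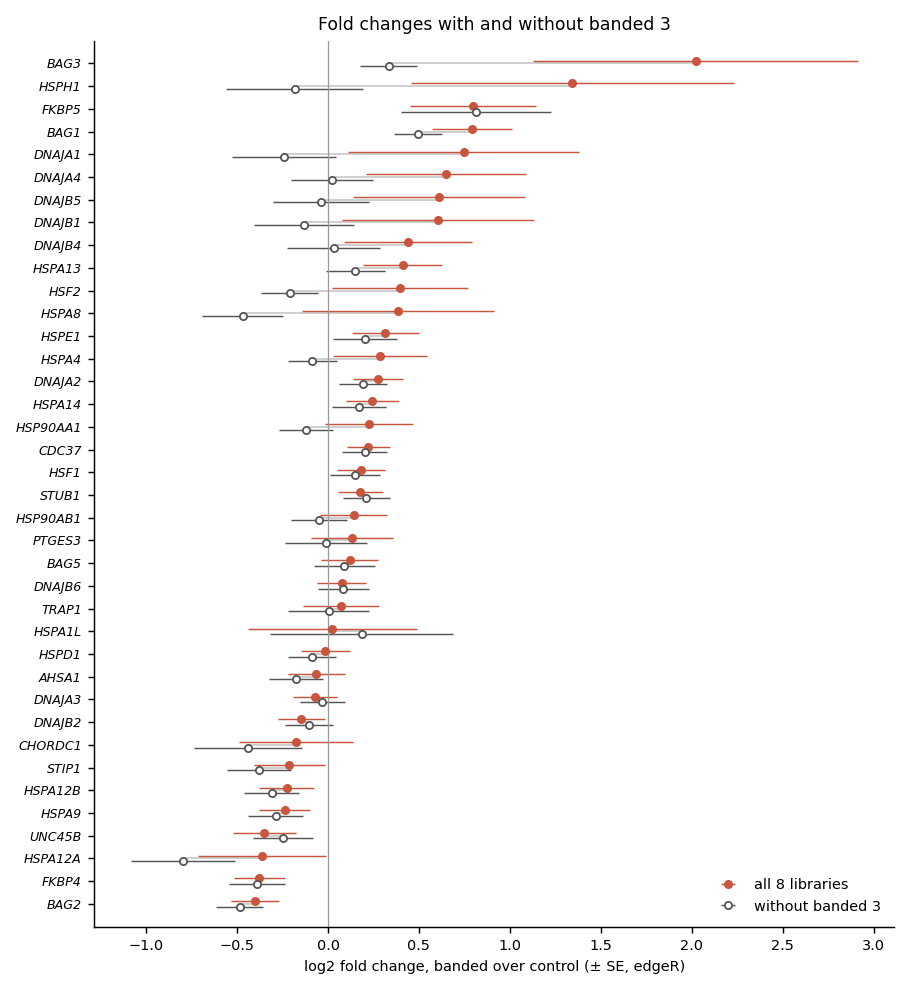
The log2 fold change of banded over control with its SE (edgeR) for the 38 genes, with all 8 libraries (filled) and without banded 3 (open). The values of BAG3, HSPH1, DNAJA1, HSPA8 and HSF2 move far to the left, the sign changes for 10 genes, and BAG1, BAG2, FKBP4 and FKBP5 keep their direction.

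Other chaperone systems were read from the same fit. Of 84 tested genes in 7 lists, 4 were called higher and 0 lower in edgeR (backgrounds 3.47% and 3.5% of all genes), with 14 at an unadjusted p under 0.05. None of the 7 tested subunits of the TRiC chaperonin, which folds actin and tubulin, was called, with 0 of 7 at an unadjusted p under 0.05 in edgeR, and banded 3 was the highest library for all 7. CCT7, the most abundant per length, was at 171 ± 13.8 and 182 ± 27.2 CPM (SD, n = 4). The models named CCT2 and CCT6B were near 0 in every library and were not tested. Of 11 genes of prefoldin and the R2TP complex, PFDN1 rose by 0.59 ± 0.15 on the log2 scale (means of 54.9 ± 8.49 and 82.8 ± 11.9 CPM, adjusted p = 0.0371), and PFDN6, the most abundant per length, did not pass (adjusted p = 0.906). PFDN1 was no longer called without control 1, 2 or 3 or banded 1 or 4 (highest adjusted p 0.125).

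Of 23 further J-domain genes, 1 was called. DNAJC5, the cysteine string protein of exocytosis, rose by 0.85 ± 0.15 on the log2 scale (means of 12.5 ± 1.19 and 22.5 ± 3.33 CPM, adjusted p = 0.00704 in edgeR). All 4 banded libraries were above all controls for DNAJC5, and it was called on leaving out any 1 library (highest adjusted p 0.0317). DNAJC8, the most abundant of these per length, did not pass (adjusted p = 0.672). Of 23 further co-chaperones of HSP70 and HSP90, 1 was called. ITGB1BP2, or melusin, a muscle co-chaperone of HSP90, was at 92.6, 81.1, 80.4 and 115.6 CPM across controls and 162, 132, 185.9 and 141 CPM across banded animals (0.75 ± 0.16, adjusted p = 0.0198). Every banded library was above every control, and the call held without banded 3 (adjusted p = 0.0303) but not without control 1, 2 or 3 (highest adjusted p 0.0753). None of the 10 tested mitochondrial partners and proteases was called (3 at an unadjusted p under 0.05), with log2 fold changes of -0.52 for the protease CLPP to 0.73 for the stress factor ATF5. SPG7, the most abundant of them per length, had an adjusted p of 0.507.

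Of 6 partners of BAG3 in autophagy, 1 was called. HSPB8, its small heat-shock partner, was at 168, 156, 134 and 264 CPM across controls and 235, 169, 1678 and 314 CPM across banded animals (adjusted p = 0.23 in edgeR). FLNC, the filamin that BAG3 helps to clear, was at 487 to 957 CPM across controls and 831, 528, 4535 and 424 CPM across banded animals (adjusted p = 0.394). Banded 3 did not stand apart for SQSTM1 (227 CPM, against 158 to 221 CPM in the remaining libraries). Nor did it for SYNPO2 (116 CPM, against 103 to 147 CPM) or LAMP2 (53.3 CPM, against 51.9 to 63.1 CPM). WIPI1, a protein of early autophagosomes, was at 18.3 to 23.1 CPM across controls and 45.3, 38.5, 40.8 and 59.0 CPM across banded animals. WIPI1 rose by 1.17 ± 0.15 on the log2 scale (adjusted p = 0.00171), and was called on leaving out any 1 library (adjusted p of 0.00147 to 0.0104).

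Of the stress-inducible HSP70 genes, HSPA1A and HSPA1B matched no gene model by name. HSPA6 was at 236.4 CPM in banded 3 and at 0.927 to 2.97 CPM in the other 7 libraries (adjusted p = 0.212 in edgeR). A model named HSP70.2, chosen here after its values were seen, was at 519 CPM in banded 3 and at 13.4 to 29.6 CPM in the other 7 (adjusted p = 0.271). It lies on chromosome 7 (23914603 to 23928196, plus strand) and overlaps the span of HSPA1L on the minus strand. Near-identical HSP70 copies can share reads, so these levels are uncertain. HSBP1, a binding partner of HSF1 and the most abundant of this list per length, was at 132 to 179 CPM across controls and 163 to 230 CPM across banded animals (adjusted p = 0.182).

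**Figure D5:**
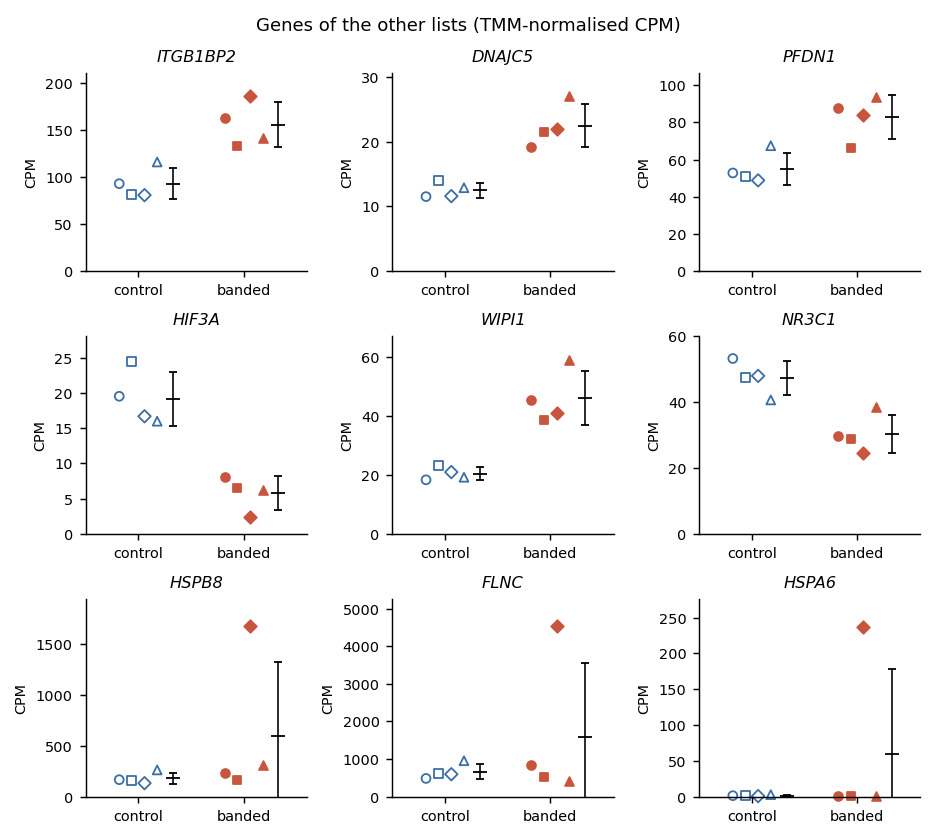
TMM-normalised CPM of 9 genes of the other lists, with NR3C1 and HIF3A from the glucocorticoid list, in each library, with symbols as for the chaperone levels and the mean and SD (n = 4) beside each group, cut at 0. ITGB1BP2, DNAJC5, WIPI1, NR3C1 and HIF3A separate the groups, PFDN1 overlaps in 1 library, and HSPB8, FLNC and HSPA6 stand out in banded 3 alone.

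A list of the glucocorticoid and mineralocorticoid receptors, which are clients of HSP90, and genes known to respond to glucocorticoids was read beside FKBP5. Of its 20 tested genes, 0 were called higher and 2 lower (backgrounds 3.47% and 3.5%), and 8 had an unadjusted p under 0.05 in edgeR (background 23.8%). Those 8 were CEBPD, PDK4, NFKBIA and GLUL with positive and NR3C1, HIF3A, SGK1 and CRISPLD2 with negative log2 fold changes, and the median over the 20 was 0.00. NR3C1, the receptor, fell by 0.64 ± 0.15 on the log2 scale (means of 47.3 ± 5.15 and 30.3 ± 5.83 CPM, adjusted p = 0.0293 in edgeR), with every banded library below every control. HIF3A fell by 1.73 ± 0.32 (means of 19.2 ± 3.86 and 5.78 ± 2.44 CPM, adjusted p = 0.0119). HIF3A was called on leaving out any 1 library, and NR3C1 was not without control 1, 2 or 3 or banded 1 or 2 (highest adjusted p 0.0966). TSC22D3, a well-known target, was at 46.1 to 154 CPM across controls and 69.2 to 134 CPM across banded animals (adjusted p = 0.799). PDK4, the most abundant of them per length, was at 55.4 to 158 CPM across controls and at 540, 398, 2165 and 51.2 CPM in banded 1 to 4 (adjusted p = 0.135). Banded 4 was thus the lowest banded library for PDK4, as it was for FKBP5, but not for the list as a whole. It was also lowest of the banded libraries for ZBTB16, KLF9, CEBPD, ANGPTL4, GLUL and NFKBIA. Banded 3 was lowest for NR3C1, HIF3A, TSC22D3, PER1, KLF15, DDIT4, MAOA and SESN1. The lowest was banded 1 for SGK1, ERRFI1, DUSP1 and CRISPLD2, and banded 2 for NR3C2.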

How the data were processed

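Whole-number counts per gene were deposited for 8 libraries. Read pairs had been assigned to genes by the authors using featureCounts 1.6.2, per the file headers (mapping quality of at least 10, strand setting 2) on Ensembl release 106 of Sscrofa11.1, naming 24 libraries, of which 8 were analysed here. Trimmomatic, HISAT2, Subread and DESeq2 were used, per the submitters' processing notes, with no versions given in the sources used here. The authors' deposited comparison lists, for control over banded, each gene's log2 fold change, its normalised signal averaged over libraries, its Wald score and its p-values. Genes were filtered with filterByExpr (minimum count 10, total 15), scaled by TMM and tested by robust quasi-likelihood F tests, two-sided, in edgeR 4.0.16 (R 4.3.3), with Benjamini-Hochberg adjustment over 13697 genes and a threshold of 0.05. The SE is the log2 fold change over the square root of F. On data simulated for banded against control with 13504 genes, this recovered 4.48% of 67 genes changed 1.5-fold, 53.7% of 67 changed 2-fold and 89.4% of 66 changed 4-fold. Ratios of 4 gene pairs used counts with 0.5 added and exact permutation. Alternatives were DESeq2 1.42.0, limma-voom (limma 3.58.1), other scalings, filters and left-out libraries. Leaving out banded 3 in DESeq2, and banded 3 with control 4 in edgeR, was chosen after seeing the data. The genes and lists were chosen with earlier results of these data known. Named were members with an adjusted p under 0.05, the most abundant of each role, 11 set genes and, of 8 pathway lists, up to 3 called members and the most abundant. Further genes of these lists, among them FLNC, HSPA6, CLPP, ATF5 and TSC22D3, were named outside that rule. The spans of 18 of 38 models meet another RefSeq gene, and HSP90AA1 and BAG5 lie on an unplaced scaffold. Replicates are separate animals. A gene of the further J-domain list is not reported here.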

Additional observations from a re-analysis of the deposited data

Results flagged for a closer look

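Within a group of 4, a library was marked where its gap to the nearest other library divided by the group's range exceeded Dixon's 95% critical value, on the CPM scale. Of 76 groups checked (38 genes in 2 groups), 15 were marked, and chance marks about 1 in 20. Banded 3 was high in 9 of them. It held 165.7 CPM of HSPA4, 2865 CPM of HSPA8, 132 CPM of HSPH1, 1404 CPM of HSP90AA1 and 982 CPM of HSP90AB1. It also held 468 CPM of DNAJA1, 77.2 CPM of DNAJB1, 975 CPM of BAG3 and 30.9 CPM of HSF2. Control 4 was high in 5, with 31.5 CPM of HSPH1, 165.8 CPM of DNAJA1, 37.5 CPM of DNAJB1, 75.0 CPM of DNAJB6 and 82.3 CPM of PTGES3. HSPH1, DNAJA1 and DNAJB1 were thus marked in both groups. Banded 1 was low for BAG5 (11.0 CPM, against 15.7 to 16.6 CPM in the other banded libraries).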

How the results depend on the processing

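No paired analysis was possible because the labels number the animals of the 2 groups separately. Of all genes 954 were called, against 1631 with DESeq2, 1536 with DESeq2 without banded 3, 148 in a test against 1.5-fold and 399 to 962 on leaving out 1 library (399, 415 and 409 without control 1, 2 and 3). Of the 38 chaperone genes 0 were called, against 1 with DESeq2, 2 with DESeq2 without banded 3, 2 with limma-voom, 1 with no filter on low counts and 0 to 2 on leaving out 1 library. Of the genes of all 8 other lists, the glucocorticoid list with NR3C1 and HIF3A included, 6 were called, against 10 with DESeq2 (with or without banded 3), 1 in the 1.5-fold test and 3 to 7 on leaving out 1 library (3 without control 2 and 3 without control 3). With library size alone as the scaling, all tested genes had a median of -0.085 on the log2 scale, and the sign turned for HSPA1L (-0.098), TRAP1 (-0.053) and DNAJB6 (-0.018). With limma-voom it turned for HSPA8 (-0.15), TRAP1 (-0.077) and HSF2 (-0.046). Without banded 3 it turned for 10 genes, in edgeR and DESeq2 alike, and these edgeR values were the lowest on leaving out 1 library: HSPA4 (-0.087, highest 0.41), HSPA8 (-0.47, highest 0.64), HSPH1 (-0.18, highest 1.78), HSP90AA1 (-0.12, highest 0.35), HSP90AB1 (-0.052, highest 0.23), DNAJA1 (-0.24, highest 1.02), DNAJB1 (-0.13, highest 0.94), DNAJB5 (-0.039, highest 0.87), PTGES3 (-0.013, highest 0.29) and HSF2 (-0.21, highest 0.59). In DESeq2 without banded 3 they were -0.086, -0.47, -0.18, -0.12, -0.051, -0.24, -0.13, -0.037, -0.011 and -0.21. Without banded 3 and control 4 together the sign turned for HSPA4 (-0.029), HSPA8 (-0.30), HSP90AA1 (-0.095), TRAP1 (-0.17) and HSF2 (-0.18). Leaving out 1 other library turned HSPA1L (range -0.25 to 0.23, negative without control 3, control 4 or banded 4), TRAP1 (-0.096 to 0.21, negative without control 4), HSPD1 (-0.087 to 0.046, positive without control 1, control 2, banded 2 or banded 4), CHORDC1 (-0.44 to 0.14, positive without control 4) and AHSA1 (-0.17 to 0.016, positive without banded 1 or 2). The cause was not tested. The adjusted p of BAG1 ranged from 0.0109 to 0.795 and that of BAG2 from 0.0255 to 1.00 over these alternatives, the highest in the 1.5-fold test. In simulated counts most genes changed 1.5-fold were missed. Far fewer genes were changed there than were called in these data, which made the adjusted threshold stricter in the simulation. Its recovery may thus be too low for these data. The changed genes were drawn only from those above a minimum mean count, which may make it too high for genes of low count. No library was simulated as standing apart, as banded 3 did. Which way the recovery errs is not known, and changes of that size may have been missed with 4 animals a group.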
